A study of Mus musculus with 6 samples.

Results

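Ccr2, Gas7, Foxd2os and BC064078 are 4 of the 46078 genes of the count table, and each was found by its symbol as a single row. They were chosen by these same counts, low in the intestinal epithelium of young mice and several times higher in that of aged mice, so their difference between the ages is described here and not tested. Only Ccr2 was near 0 in young libraries. Gas7, Foxd2os and BC064078 were counted in every young library, with at least 21 counts each, and a level that is low but present describes them better than a start from near 0.

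RNA came from epithelial cells of the small intestine of untreated C57BL/6JRj mice, 3 young (2 to 3 months old) and 3 aged (20 to 22 months old). The gut tissue was digested and cells were sorted as positive for EpCam, an epithelial adhesion molecule, and negative for CD45, the leukocyte surface protein encoded by Ptprc. Each mouse was taken to give 1 library, and no batch, sex or pairing is labelled. The 6 libraries held 41479573 to 58989166 counts. Levels are given in CPM, the usual depth-scaled count, with each library's total taken over the genes tested and adjusted by its TMM factor. The epithelial genes Epcam, Vil1 and Krt8 lay above 1000 CPM in every library, and Ptprc lay between 0.168 and 0.287 CPM. Epcam was lower in every aged library than in every young one (1656 ± 18.3 and 1510 ± 11.3 CPM, young and aged, SD). It was not called (edgeR adjusted p = 0.653), and the groups did not overlap in 13.8% of all genes tested. On the second principal component (22.4% of the variance), young replicate 2 and aged replicate 3 stood apart from the other libraries, at -34.8 and 21.8. Bulk libraries cannot tell more cells of a type from more RNA per cell.

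CCR2 is a G protein-coupled receptor for the chemokines CCL2, CCL7, CCL8 and CCL12 and is best known for guiding inflammatory monocytes out of the bone marrow and into tissue. GAS7 belongs to the F-BAR proteins, which bind and bend membranes, and it links them to actin assembly; it is known from growth-arrested fibroblasts and from neurons. Foxd2os is a long noncoding RNA that starts beside Foxd2, a forkhead transcription factor gene, and runs away from it. BC064078 is annotated as a transcribed pseudogene by GENCODE and as a noncoding RNA by RefSeq, and it lies among the Clec2 and Klrb1 genes, which encode C-type lectin-like ligands and receptors of the natural killer gene complex.

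3 stretches of sequence place these genes. The first and second are RefSeq promoter windows (GRCm38.p6), each of 250 bases before and 50 bases after an annotated start. The windows are shown because they differ in CpG content, with each CG in capitals. The table held a window for 1 of the 4 genes, Ccr2, at chr9:124101933-124102232 on the plus strand. Foxd2 has one at chr4:114908849-114909148 on the minus strand, and its upstream end lies 109 bases from the annotated start of Foxd2os. The third is the part of transcript BC064078-202 (GENCODE M21, bases 53 to 261 of 2299) that aligned to the neighbouring gene Clec2g, with bases that differ from Clec2g or have no counterpart there in capitals.
Ccr2: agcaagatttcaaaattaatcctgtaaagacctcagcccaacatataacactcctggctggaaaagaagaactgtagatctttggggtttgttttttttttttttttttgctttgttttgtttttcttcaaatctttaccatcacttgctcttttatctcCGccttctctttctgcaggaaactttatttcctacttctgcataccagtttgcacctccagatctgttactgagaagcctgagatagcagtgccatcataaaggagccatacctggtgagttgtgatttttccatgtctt
Foxd2: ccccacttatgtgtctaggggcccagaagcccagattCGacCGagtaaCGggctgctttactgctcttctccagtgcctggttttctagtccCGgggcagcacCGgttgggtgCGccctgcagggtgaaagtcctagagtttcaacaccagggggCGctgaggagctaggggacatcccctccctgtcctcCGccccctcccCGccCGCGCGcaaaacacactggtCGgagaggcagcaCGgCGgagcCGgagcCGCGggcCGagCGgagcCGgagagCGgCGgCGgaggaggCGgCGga
BC064078: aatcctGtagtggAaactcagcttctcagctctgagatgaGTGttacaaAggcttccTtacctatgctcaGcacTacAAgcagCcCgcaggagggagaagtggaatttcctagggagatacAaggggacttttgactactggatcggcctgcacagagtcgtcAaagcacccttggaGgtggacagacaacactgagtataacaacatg
The Ccr2 window held 1 CpG and 38.0% G and C, and 94.6% of the 32851 windows of this length held at least as many CpGs. The Foxd2 window held 26 CpGs and 67.7% G and C, and 16.9% of windows held at least as many. Both strands were searched for the interferon-stimulated response element (in 3.44% of all windows), the gamma-activated site (TTCNNNGAA, 8.3%), TATAAA (13.6%), the GC box GGGCGG (35.7%) and CCAAT (37.4%). The Ccr2 window matched none of them, and the Foxd2 window matched only the GC box, at 2 places. The GENCODE span of Ccr2 starts at 124101950, near the upstream end of the Ccr2 window. Most of that window thus lies past the GENCODE start, and sequence farther upstream was not searched for CpGs or motifs. The BC064078 stretch matched Clec2g-201 at 91.5% of 211 aligned columns, with 15 mismatches and 3 gapped columns.

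Ccr2 (ENSMUSG00000049103, chromosome 9, 124101950 to 124113557, plus strand, GRCm38) had 0, 1 and 0 counts in young replicates 1, 2 and 3 and 40, 43 and 49 counts in aged replicates 1, 2 and 3. The aged libraries were thus within counting error of each other and far from the young ones. In aged libraries this was 0.845, 0.943 and 0.873 CPM, or 0.887 ± 0.0505 CPM (SD, n = 3). The 0 counts of young replicates 1 and 3 allow up to 3 counts, which is 0.0682 and 0.0720 CPM. With 132 counts over the aged libraries against 1 over the young, the ratio was 128, and its exact binomial 95% interval ran from 22.6 to 5102. The interval is for counting error only, with the libraries of a group pooled. It does not allow for the choice of Ccr2 by this same contrast. All 4 genes passed the filter on low counts, Ccr2 only through its aged libraries.

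Gas7 (ENSMUSG00000033066, chromosome 11, 67455437 to 67688990, plus strand) had 80, 88 and 117 counts in young and 466, 306 and 588 in aged libraries. Its level was 1.82, 1.49 and 2.81 CPM in young and 9.84, 6.71 and 10.5 CPM in aged libraries. Aged replicate 2 was the lowest of its group and still above all young libraries. The means were 2.04 ± 0.687 and 9.01 ± 2.02 CPM (SD, n = 3 each), a 4.46-fold difference (log2 fold change 2.16 ± 0.26, SE).

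Foxd2os (ENSMUSG00000085399, chromosome 4, 114909257 to 114921967, plus strand) had 21, 31 and 33 counts in young and 190, 206 and 199 in aged libraries, or 0.478, 0.524 and 0.792 CPM against 4.01, 4.52 and 3.55 CPM. The lowest aged library lay 4.48 times above the highest young one. The means were 0.598 ± 0.170 and 4.03 ± 0.486 CPM, a 6.75-fold difference (log2 fold change 2.76 ± 0.25, SE).

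BC064078 (ENSMUSG00000087150, chromosome 6, 128992952 to 129008040, plus strand) had 123, 123 and 86 counts in young and 903, 1328 and 523 in aged libraries. Its level was 2.80, 2.08 and 2.06 CPM in young and 19.1, 29.1 and 9.32 CPM in aged libraries. The young libraries were close together, and the aged ones spread 3.12-fold, with replicate 3 lowest and replicate 2 highest. The means were 2.31 ± 0.419 and 19.2 ± 9.90 CPM, an 8.28-fold difference (log2 fold change 3.05 ± 0.41, SE).

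**Figure D1:**
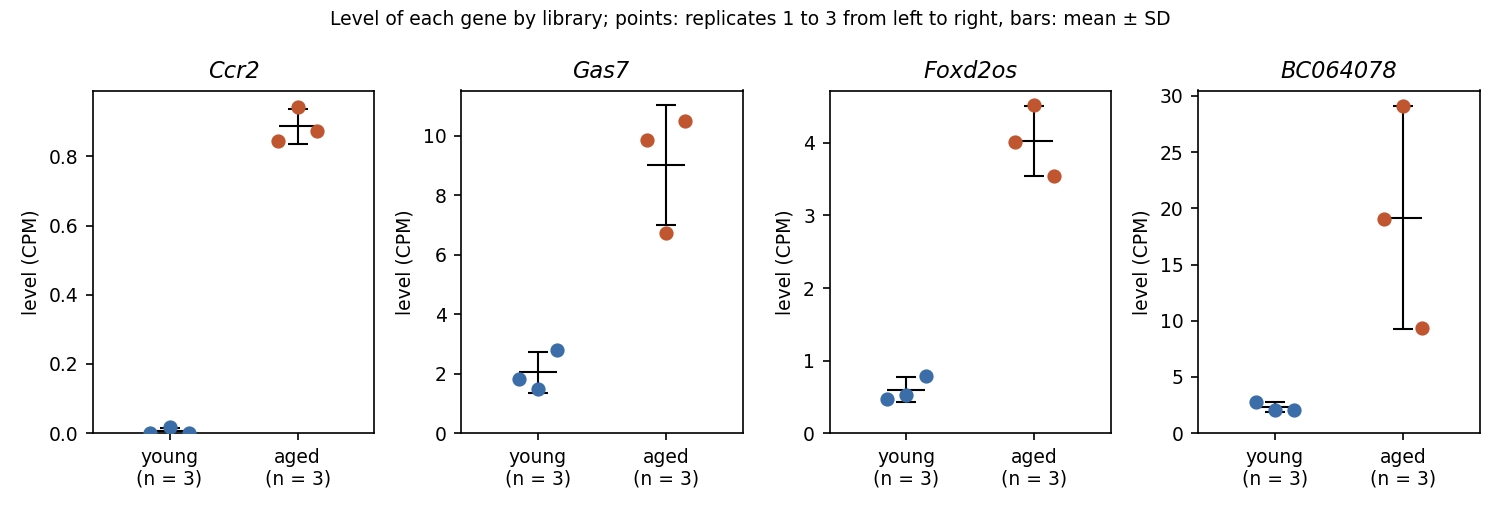
Level of Ccr2, Gas7, Foxd2os and BC064078 in each library (vertical axes in CPM, each from 0), with young libraries in blue and aged libraries in orange, 3 each, and mean ± SD as bars. The groups do not overlap for any of the 4 genes, the 3 aged Ccr2 values lie between 0.845 and 0.943 CPM, and the aged BC064078 values run from 9.32 to 29.1 CPM.

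The 4 genes shared the direction for which they were picked. The standard deviation over the 3 aged libraries was 5.69% of the mean for Ccr2, 12.1% for Foxd2os, 22.4% for Gas7 and 51.6% for BC064078. Counting error alone gives about 15.1% at the 40 to 49 counts of Ccr2, so its smaller value cannot be read as a tighter spread among mice. Gas7 was highest in aged replicate 3, where Foxd2os and BC064078 were lowest, and lowest in aged replicate 2, where Ccr2, Foxd2os and BC064078 were highest. Per kilobase of annotated exon, the aged means were 0.131 CPM for Ccr2, 0.795 for Gas7, 1.25 for Foxd2os and 7.53 for BC064078, and no neighbours in this order overlapped between libraries. In young libraries Ccr2 was again lowest (0.000834 CPM per kilobase) and BC064078 highest (0.909). Gas7 and Foxd2os overlapped there, with means of 0.180 and 0.185.

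In all 4 genes every aged library lay above every young one, as it did in 6.3% of the 14923 genes tested; for these genes this follows from how they were picked. Among fitted rises they ranked 2 (Ccr2), 20 (BC064078), 28 (Foxd2os) and 42 (Gas7), and among changes of either sign 5, 44, 57 and 91, where the place of Ccr2 rests on a fold that depends on the prior count. A young mean under 1 CPM with a log2 fold change of at least 3 was found in 11 genes. Ccr2 was 1 of these 11, while Foxd2os fell short in fold and Gas7 and BC064078 had higher young means. Of the other 10, the largest fitted changes were in Strc, Iigp1, Otx1 and Ddr2. Ddr2, a collagen receptor, had 8, 13 and 14 counts in young and 492, 380 and 539 in aged libraries. Otx1, a homeobox gene, had 0, 2 and 0 against 69, 29 and 16. Iigp1, an interferon-inducible GTPase gene, had 3, 4 and 0 against 79, 249 and 76, and Strc, a hair cell protein gene, had 1, 5 and 0 against 244, 103 and 29. Of these 10, edgeR did not call Strc (adjusted p = 0.0636), Tgtp1 (0.0505) or Fam83a (0.118). The 10 were cut by fold change in the same contrast, which favours calls. At most 1 count over the young libraries with at least 10 in each aged library was found in Ccr2 and in 1 other gene, Gm4841.

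The opposite pattern was found in 23 genes, with an aged mean under 1 CPM and a log2 fold change of at most -3. All 23 were called, which the cut on fold change in the same contrast favours. The calcium channel gene Trpv6 had 93, 74 and 85 counts in young libraries and 0 in each aged library. Rian and Meg3, noncoding RNAs of an imprinted cluster, had 11, 24 and 10 and 41, 70 and 53 counts in young libraries against 0 and 1 in each aged one. Galnt13 had 16, 16 and 9 counts against 0 in each aged library, and Sat2 44, 23 and 38 against 0, 0 and 1. These genes and the 4 described here share the same 6 libraries and the same contrast, and their numbers are given as a description.

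**Figure D2:**
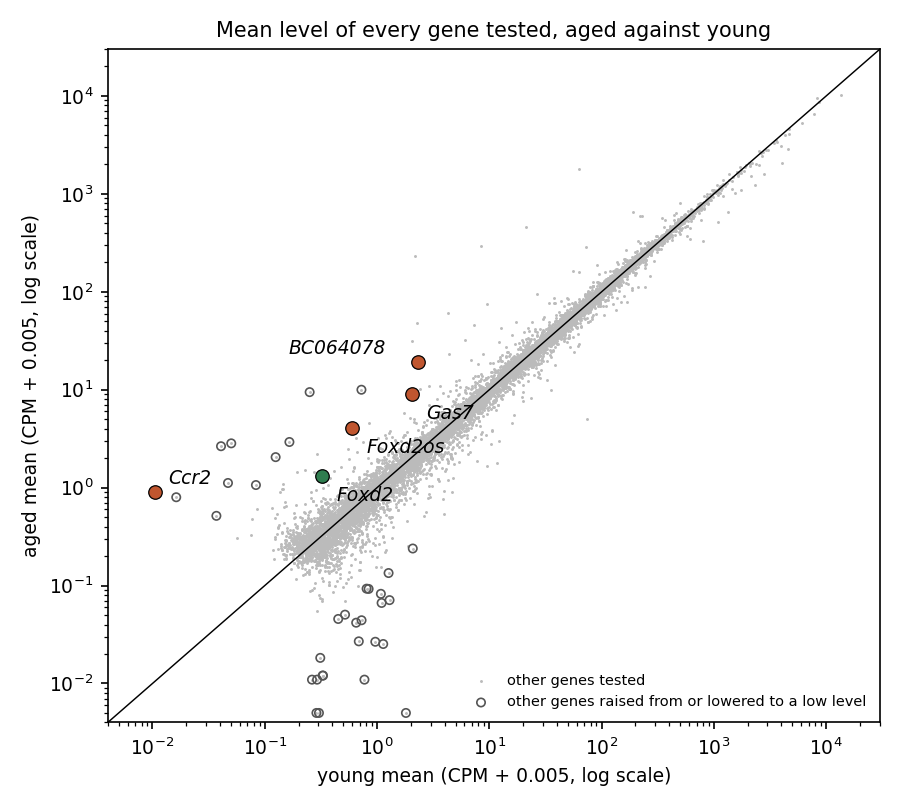
Mean level of every gene tested in aged (vertical) against young libraries (horizontal), both in CPM plus 0.005 on log scales, with the line of equal levels. Ccr2 (0.887 CPM in aged libraries) lies at the far left. Open circles mark the other genes raised from or lowered to a low level, the raised ones with young means up to 0.721 CPM (P2rx7). Gas7, Foxd2os and BC064078 (orange) and Foxd2 (green) lie closer to the body of genes than Ccr2.

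The ligands and relatives of CCR2 were read from the fit across all genes, where a call is an adjusted p under 0.05 in edgeR. Of 14923 genes 1.41% were called, 93 higher (0.623%) and 117 lower (0.784%) in aged libraries, and 9.23% had an unadjusted p below 0.05, the share against which such counts for a list are read. The 4 ligand genes Ccl2, Ccl7, Ccl8 and Ccl12 had 0 counts in all 6 libraries, which allows at most 0.0720 CPM in any of them. Of the 23 other chemokine receptor genes, 8 had 0 counts in every library and 4 were high enough to test. None of the 4 was called by edgeR or limma-voom, 2 had an unadjusted p below 0.05, and DESeq2 called Ccrl2 higher (adjusted p = 0.0270). Ccrl2, an atypical receptor that binds chemerin, was the most abundant, at 3.18, 3.87 and 4.23 CPM in the young group against 6.32, 6.49 and 4.90 CPM in the aged group (log2 fold change 0.65 ± 0.18, SE, edgeR adjusted p = 0.161). Its groups did not overlap. Ackr4, a scavenging receptor, stood at 0.463 ± 0.0615 and 0.319 ± 0.0357 CPM (edgeR adjusted p = 0.717). The groups of Ackr4 did not overlap either, nor did those of Cxcr4 (log2 fold change -1.13, edgeR adjusted p = 0.285). Both were lower in aged libraries, and Ackr3 overlapped. Over all genes tested, the groups did not overlap in 13.8%.

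The receptor signalling list held G protein subunits, arrestins, receptor kinases, phospholipases and their partners, and all 18 of its genes were tested. It had 0 calls by edgeR, DESeq2 or limma-voom and 1 gene with an unadjusted p below 0.05. Its median log2 fold change was 0.02, beside 0.0065 over all genes tested. The most abundant members were Plcb3, a phospholipase (1360 ± 18.8 and 1393 ± 28.5 CPM), and the G protein subunit Gnb1 (426.8 ± 7.14 and 431.4 ± 17.5 CPM). Transcripts of these shared signalling parts were thus present in both groups.

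Markers of monocytes, macrophages and dendritic cells were read beside Ccr2, since those cells carry the receptor. Of 31 such genes, 13 were tested, 1 rose and 12 were not called, with a median log2 fold change of 0.22. An unadjusted p below 0.05 was found in 2 of the 13. Ly6c2, Chil3, Ms4a4c and Cd209a had 0 counts in all 6 libraries. Csf1r, the receptor that macrophages need to survive, had 0, 1 and 5 counts in young and 1, 0 and 1 in aged libraries. Adgre1, which encodes the macrophage protein F4/80, had 1, 0 and 0 against 1, 0 and 0, and Spi1, the myeloid transcription factor PU.1, had 1, 1 and 1 against 1, 0 and 2. By CPM every aged library lay above every young one in 4 of the 31 markers, and below in 1, Lyz2. Of all genes tested, 6.3% had the aged libraries above, and 13.8% did not overlap in either direction. These shares do not apply directly to the list, since only 13 of the 31 were tested. The 4 markers with aged libraries above were Itgam and, at lower levels, Fcer1g (18, 21 and 6 counts against 23, 20 and 23), Mpeg1 (1, 0 and 2 against 4, 3 and 5) and Itgax (2, 2 and 0 against 4, 4 and 8). The raw counts of Fcer1g overlapped, and its groups nearly touched in CPM. Mpeg1 and Itgax had at most 8 counts in any library, so of the 4 only Itgam was clearly apart. Ptprc had 11, 17 and 7 counts in young and 13, 10 and 11 in aged libraries (log2 fold change -0.06 ± 0.38, SE, edgeR adjusted p = 0.986). The summed level of the list ran from 792.5 to 939.5 CPM in young and from 780.9 to 823.6 CPM in aged libraries, most of it from Plac8. Without Plac8, a sum taken after the values were seen, it ran from 93.9 to 101.2 CPM in young and from 110.9 to 129.4 CPM in aged libraries, and the groups did not overlap. The gene that rose was Itgam, the integrin subunit CD11b, from 12.6 ± 0.681 to 21.6 ± 1.18 CPM (log2 fold change 0.78, edgeR adjusted p = 0.00726). Itgam also stood above 10 CPM in young libraries, and the part of such cells in the Ccr2 difference was not tested.

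Of 28 markers of T cells, NK cells and innate lymphoid cells, 10 were tested, and 1, the integrin subunit Itgae, rose, with 62, 62 and 43 counts in young and 189, 129 and 190 in aged libraries (log2 fold change 1.55 ± 0.23, SE, edgeR adjusted p = 0.0129). Itgae was also the only gene of this list with an unadjusted p below 0.05. Leaving out either young replicate 3 or aged replicate 1 ended its call. The summed level of this list was 8.07 to 8.74 CPM in young and 7.85 to 14.2 CPM in aged libraries. Il7r and Ncr1 had 0 counts in all 6 libraries, and Cd3e, part of the T cell receptor, had 8, 9 and 3 counts in young and 4, 3 and 12 in aged libraries. The part of these cells in the results was not tested. The lists for B cells and plasma cells (2 of 12 genes tested), neutrophils and mast cells (1 of 14) and fibroblasts, smooth muscle and endothelium (6 of 17) had 0 calls by edgeR, DESeq2 or limma-voom and 0 genes with an unadjusted p below 0.05. Summed over the list, B cell and plasma cell genes reached 2.57 to 3.18 CPM in young and 3.03 to 4.04 CPM in aged libraries. Neutrophil and mast cell genes, of which 10 had 0 counts throughout, reached at most 48.5 and 38.0 CPM, and genes of the last list 36.8 to 61.0 and 43.5 to 49.9 CPM.

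**Figure D3:**
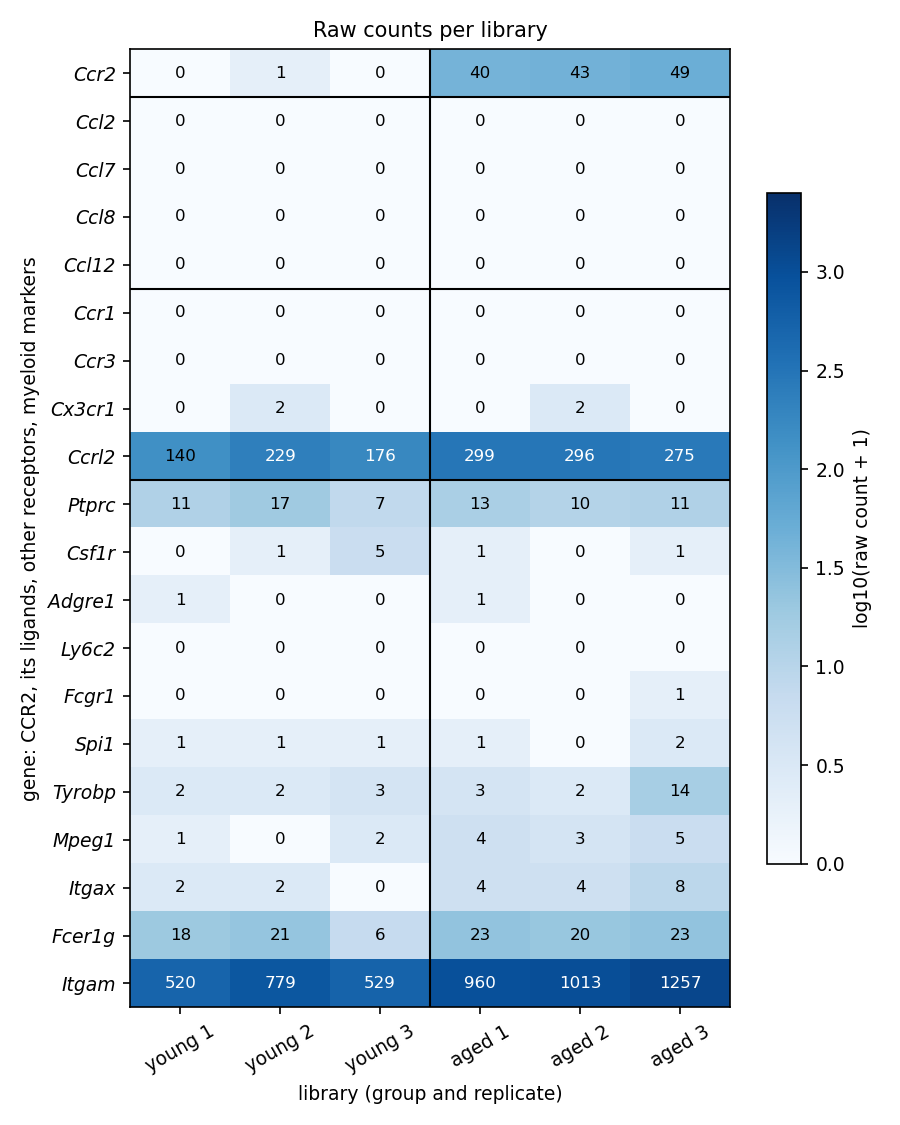
Raw counts in each of the 6 libraries (columns) for Ccr2, its 4 ligand genes and selected other genes (rows), with log10(count + 1) as colour. The selected genes are some of the 23 other chemokine receptors and of the 31 myeloid markers. Lyz2, Cxcr4 and Ackr4, lower in aged libraries without overlap, are not drawn, nor is Plac8. Ccr2 has 0 or 1 count in young and 40 to 49 in aged libraries, and the ligands are at 0 throughout. Among the myeloid markers drawn, Itgam, Fcer1g, Mpeg1 and Itgax are higher in aged libraries without overlap in CPM. Of these, Fcer1g overlaps in raw counts, and Mpeg1 and Itgax have few counts. Csf1r, Adgre1 and Ly6c2 stay at 0 to 5 counts.

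Ccr2 lies in a cluster of chemokine receptor genes. Within 250 kb, 5 of 7 other genes had 0 counts in all libraries, Ccr1, Ccr1l1, Ccr3 and Xcr1 among them. The only neighbour tested in that window, 2010315B03Rik, had means of 14.7 (young) and 13.5 CPM (aged) (edgeR adjusted p = 0.869). The step from 0 or 1 to at least 40 counts seen in Ccr2 was thus absent from these 4 receptor genes. Of 6758 distinct stretches of 50 bases in Ccr2 transcripts, 1.91% were also in transcripts of another gene.

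The other F-BAR genes and the actin assembly machinery were read beside Gas7. Of 22 other F-BAR genes, 21 were tested, 1 fell and 20 were not called, and the called share of 4.76% was that single gene. An unadjusted p below 0.05 was found in 3 of the 21, Arhgap4, Srgap1 and Fchsd2, all lower in aged libraries. Arhgap4, a GTPase-activating F-BAR gene, fell, with 446, 571 and 459 counts in young and 131, 111 and 175 in aged libraries (10.3 ± 0.691 and 2.77 ± 0.342 CPM, log2 fold change -1.88 ± 0.15, SE, edgeR adjusted p = 0.000898). Its groups did not overlap, and its direction was opposite to that of Gas7. The median of the list was -0.0068. The most abundant members, Pacsin2 and Fnbp1l, stood at 126.5 ± 3.08 and 103.7 ± 5.44 CPM when young against 130.6 ± 6.38 and 105.0 ± 2.69 CPM when aged. Of 22 genes for WASP family proteins, the Arp2/3 complex and their partners, 19 were tested. They had 0 calls by edgeR, DESeq2 or limma-voom and 0 genes with an unadjusted p below 0.05, with log2 fold changes between -0.54 and 0.18. Genes of enteric neurons and glia, where GAS7 is also known, had 0 of 7 tested members called by the same 3 tools and 1 with an unadjusted p below 0.05, and their summed level was 125.4 to 132.2 CPM in young and 122.9 to 128.2 CPM in aged libraries.

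Gas7 overlaps Glp2r, a gut hormone receptor gene on the opposite strand, by 27489 bases, of which 66 are exonic in both. Glp2r had 1 count over all 6 libraries, and of 11322 distinct stretches of 50 bases in Gas7 transcripts 21 were shared with it. Of 14 other genes within 250 kb of Gas7, 8 had 0 counts, among them the muscle myosin genes Myh1, Myh4 and Myh8. The nearest genes outside the overlap, Myh13 and Rcvrn, had at most 1 count in any library. The deubiquitinase gene Usp43 stood at 104.0 ± 13.3 and 112.0 ± 2.96 CPM (edgeR adjusted p = 0.837) and 9130017K11Rik at 8.70 and 5.33 CPM (adjusted p = 0.309). Neither neighbour was called.

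Of the 4 genes, Foxd2os alone had a called gene within 250 kb, its neighbour Foxd2. Foxd2 starts on the minus strand 384 bases from the start of Foxd2os on the plus strand, so the pair runs apart and shares no exon. Foxd2 had 13, 21 and 13 counts in young and 57, 65 and 72 in aged libraries, or 0.296, 0.355 and 0.312 CPM against 1.20, 1.43 and 1.28 CPM. It rose 4.02-fold (log2 fold change 2.01 ± 0.26, SE, edgeR adjusted p = 0.00812), and the call was kept in 14 of 14 alternative fits, with adjusted p between 1.27e-05 and 0.0483. Foxd2os held 1.62, 1.48 and 2.54 counts per Foxd2 count in young and 3.33, 3.17 and 2.76 in aged libraries. The young ratios lay below the aged ones, and no test was made of this, since Foxd2os was picked for its difference. The other FoxD genes Foxd1, Foxd3 and Foxd4 were too low to test, with at most 5 counts in any library.

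**Figure D4:**
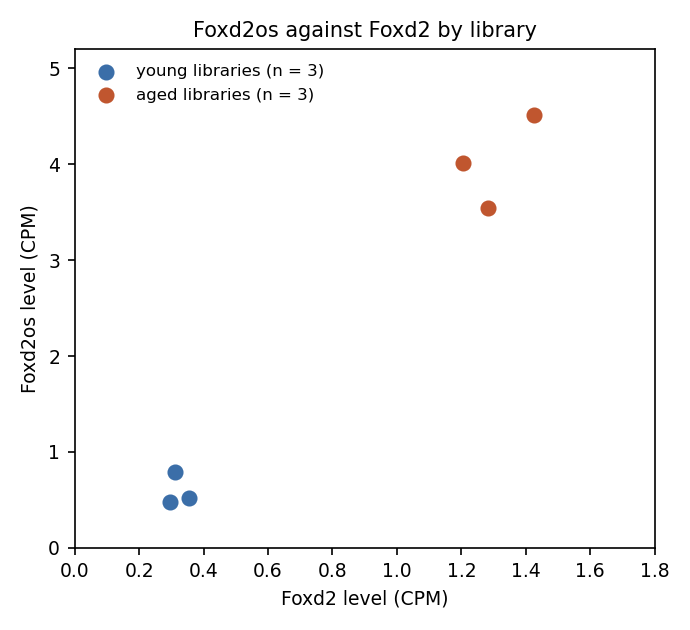
Level of Foxd2os (vertical) against Foxd2 (horizontal), both in CPM from 0, for 3 young (blue) and 3 aged (orange) libraries. The young libraries lie near 0.321 CPM of Foxd2 and 0.598 CPM of Foxd2os on average, and the aged ones near 1.30 and 4.03 CPM.

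Farther genes of this region were not called. Foxe3, which lies 3180 bases past the end of Foxd2os, had 0 counts. Of 15 genes within 250 kb, 8 had 0 counts and 5 were tested, and Foxd2 was the only one called. The nucleotide kinase gene Cmpk1 stood at 100.8 ± 6.88 and 99.1 ± 4.11 CPM (edgeR adjusted p = 0.970), and the centriole gene Stil at 31.1 ± 4.06 and 35.6 ± 2.69 CPM (adjusted p = 0.708).

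Foxd2os was also set beside other transcripts named as opposite-strand RNAs. The symbol pattern took 317 genes besides Foxd2os, of which 85 were tested. Of these, 26 had a log2 fold change above 0 and 59 below, with a median of -0.16, beside 0.0065 over all genes tested. By edgeR 0 were called higher and 1 was called lower. That gene, Ros1, encodes a receptor tyrosine kinase and met the pattern by its spelling alone. The set was therefore narrowed, after seeing this, to 294 transcripts named after another gene of the table. Of these 71 were tested, 0 were called by edgeR or limma-voom, 6 had an unadjusted p below 0.05 and DESeq2 called 1. In 66 pairs both the transcript and its namesake were tested, and 2 namesakes were called, Pla2g10 and Epb4.1l4a, with log2 fold changes of -1.25 and -2.31. None of the 66 pairs had both log2 fold changes at 1 or above, or both at -1 or below. The Foxd2 pair cannot be read against that count, since Foxd2os was chosen for its fold change.

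BC064078 sits between Clec2g, 8245 bases to its left, and Clec2f, 6072 bases to its right. Clec2g had 8, 1 and 0 counts in young and 0, 1 and 1 in aged libraries, so the neighbour that shares the stretch printed above was low in both groups. Only 9 of 2644 distinct stretches of 50 bases in BC064078 transcripts were in transcripts of another gene. Of 19 genes within 250 kb, 5 were tested and 0 were called by edgeR, DESeq2 or limma-voom. Clec2e stood at 25.5, 23.9 and 17.0 CPM in the young group against 35.0, 25.1 and 19.3 CPM in the aged group (edgeR adjusted p = 0.843), and Clec2d at 25.6 ± 2.29 and 23.5 ± 1.24 CPM (adjusted p = 0.824). Both were abundant, and neither separated the ages. Klrb1f, a receptor gene of the same complex, stood at 0.286 ± 0.129 and 0.273 ± 0.174 CPM. Of 105 other genes named only by a BC cDNA number, 55 were tested, with 0 calls by edgeR, DESeq2 or limma-voom, 3 with an unadjusted p below 0.05 and a median log2 fold change of 0.03.

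**Figure D5:**
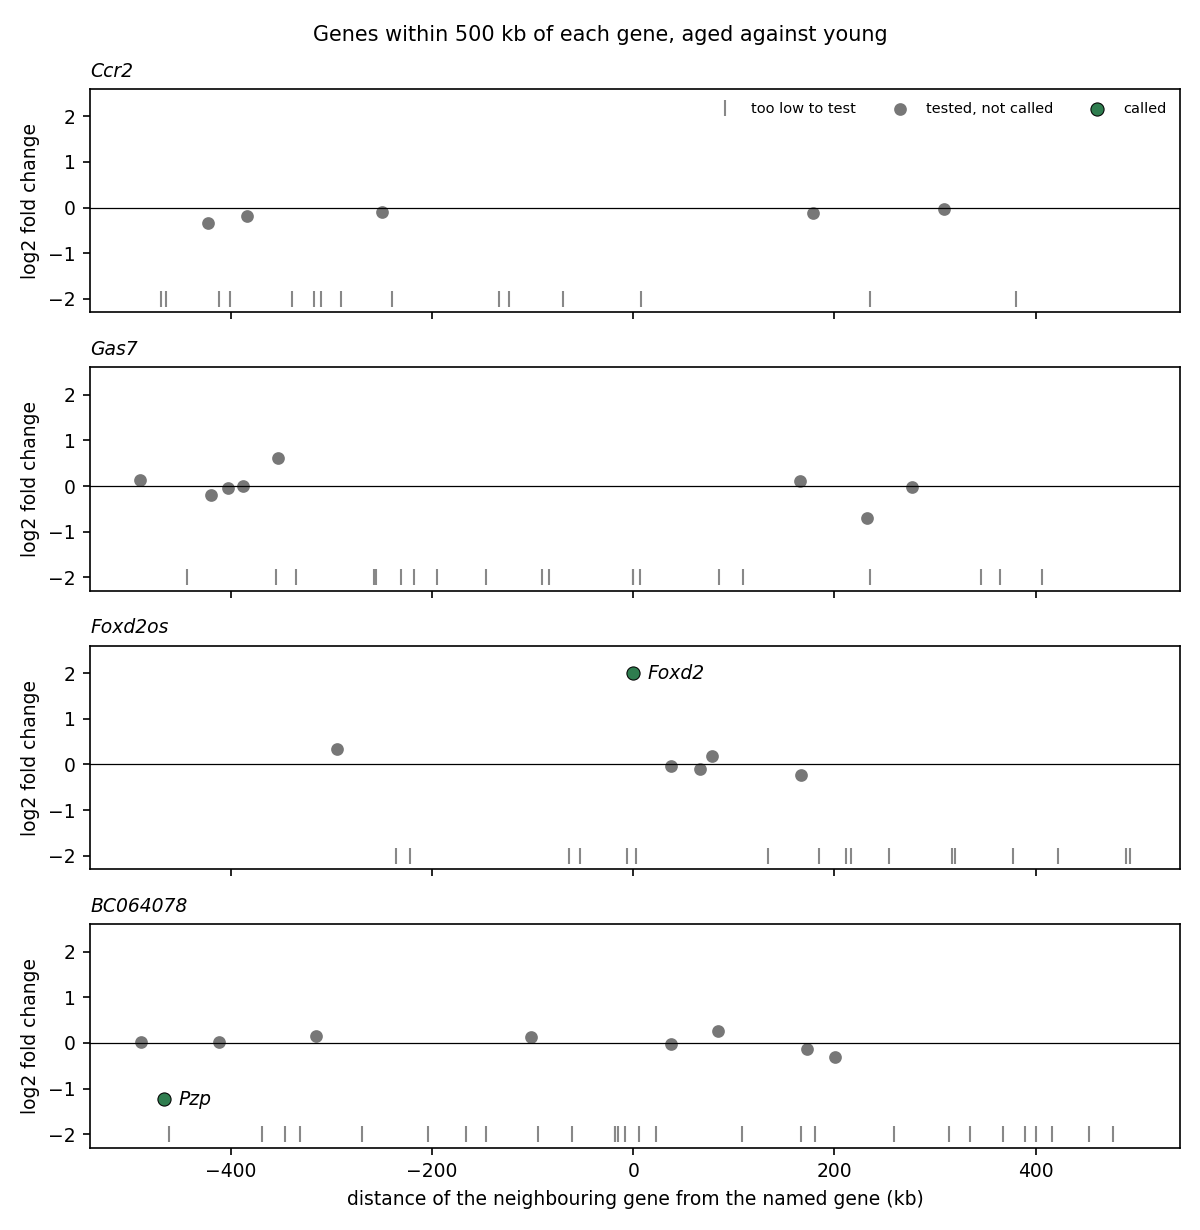
Log2 fold change (aged over young, vertical) of genes within 500 kb of each of the 4 genes against their distance in kb (horizontal, overlapping genes at 0), with called genes in green and genes too low to test as ticks at the bottom. Foxd2, beside Foxd2os, is the only called gene within 250 kb of any of them; Pzp, farther from BC064078, has a log2 fold change of -1.22.

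Beyond the 250 kb window, Pzp, a protease inhibitor gene 466232 bases from BC064078, fell from 6.44 to 2.75 CPM (edgeR adjusted p = 0.0303). Across all 4 neighbourhoods 13 genes were tested within 250 kb, and 1 of them (7.69%) was called, beside 1.41% of all genes tested. A single call in 13 gives no share that can be read against that background. An unadjusted p below 0.05 was found in 2 of the 13, Foxd2 and 9130017K11Rik.

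The genes whose pattern over the 6 libraries was most like each of the 4 were found by Pearson's r on log2 CPM, as a description with no test. All points share the same 6 libraries, and the 2 age groups alone make r high for any gene that differs between them. For Ccr2 they were Smtn, Parp3, Itgam, Ddr2 and Igtp (r between 0.989 and 0.999). Smtn, a smooth muscle and actin-binding protein gene, stood at 53.7 ± 0.830 and 68.7 ± 0.693 CPM, a far smaller fold than that of Ccr2. For Gas7 they were Hsd3b7, Cdsn, Myd88, Tbrg4 and Psd4 (0.984 to 0.998), led by the bile acid synthesis gene Hsd3b7 (62.9 ± 4.22 and 84.3 ± 4.49 CPM). For Foxd2os they were Ddr2, Nudt22, Cyc1, Mlkl and Gpa33 (0.987 to 0.993). For BC064078 they were Smpdl3b, Cd274, Dcun1d4, Tlr1 and Ifitm3 (0.985 to 0.995).

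The 5 genes most like BC064078 were chosen by r over these same libraries, so their shared order of aged libraries follows from the choice and is only described. Tlr1, a bacterial lipopeptide sensor, stood at 19.7, 24.3 and 16.1 CPM in aged replicates 1, 2 and 3, against 6.79 ± 0.774 CPM in young libraries. Ifitm3, an antiviral membrane protein gene, stood at 196.2, 223.2 and 140.1 CPM, against 91.3 ± 4.17 CPM. Cd274, which encodes PD-L1, stood at 2.03, 2.08 and 1.57 CPM, against 1.09 ± 0.102 CPM. In each of them replicate 2 was highest and replicate 3 lowest. Among the 4 genes themselves, r was between 0.850 and 0.979, and between -0.72 (Ccr2 and Gas7) and 0.40 (Gas7 and Foxd2os) once the group means were removed.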

How the data were processed

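The values deposited are whole-number counts of reads per gene, unnormalised. GRCm38, STAR and featureCounts 1.6.4 appear in the submitters' processing notes, with no role or order. A stranded poly(A) kit was used, per the labels' protocols; strand setting and annotation release of the counting: not given in the sources used here. Positions, exon lengths and transcripts came from GENCODE M21, which held 45229 of 46078 gene IDs. The 14923 genes passing filterByExpr (minimum count 10) were TMM-scaled and tested with edgeR 4.0.16 in R 4.3.3 (robust quasi-likelihood fit on age, 6 libraries, Benjamini-Hochberg, 0.05). The SE is the log2 fold change over the square root of F. Alternatives were DESeq2 1.42.0, limma-voom 3.58.1, other scalings, filters, prior counts and windows, and leaving out each library. BLAST 2.17.0 aligned transcripts. The fits were tested on simulated data.

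The 4 genes and all lists were chosen with earlier results of these data known. The rule for named genes took the 4, up to 4 called or else the 2 most abundant genes of a list, near neighbours, the 5 most alike, the 5 largest changes from or to a low level, and Epcam and Ptprc. Other named genes were added after their values were seen. Replicates are numbered in record order. Libraries of a group differed beyond sampling noise (chi-square per gene of at least 27.2). Intervals and limits for 0 counts cover only counting error, as the reads carry no molecular identifiers. Some results on genes beside those named are not reported here.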

Additional observations from a re-analysis of the deposited data

How the results depend on the processing

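No paired analysis was possible because replicate numbers follow the order of the records and pair no mice. The log2 fold changes of Gas7, Foxd2os and BC064078 stayed positive in every alternative run and moved by less than the spread between libraries. Without 1 library they ran from 1.96 to 2.45 for Gas7, from 2.63 to 2.99 for Foxd2os and from 2.61 to 3.38 for BC064078, whose extremes came without aged replicate 2 and aged replicate 3. The value of Ccr2 (6.56) depends on the prior count, since the young libraries hold 1 count. It was 6.88 with DESeq2, 5.89 with limma-voom, 4.28 with a prior count of 2 and 7.30 as the ratio of mean CPM, and it ran from 6.17 to 8.38 without 1 library, the last without young replicate 2. With a filter of 1 CPM in 3 libraries Ccr2 was not tested. Over all genes, 93 higher and 117 lower calls became 205 and 286 with DESeq2 and 168 and 245 without a filter, and the filter of 1 CPM in 3 libraries gave 67 lower calls. Without 1 library the counts ran from 35 to 135 (higher) and from 30 to 135 (lower). Higher calls numbered 43, 45, 37 and 35, and lower calls 66, 66, 30 and 37, without young replicate 1, young replicate 3, aged replicate 1 and aged replicate 2. DESeq2 called 1 of the other chemokine receptors and 2 of the opposite-strand set. In that set 0 were called with namesakes only, and the calls without 1 library ran from 0 (without aged replicate 1) to 1. They ran from 0 to 1 as well for the T cell list and, with 1 called without young replicate 2, for the BC cDNA genes. The 500 kb window gave 2 called neighbours. A log2 fold change of 2 in place of 3 gave 33 genes raised from and 54 lowered to a low level. The summed level of the myeloid markers turned in direction without Plac8, a setting chosen after seeing the data: its log2 ratio of aged to young was -0.12 with Plac8 and 0.30 without. The cause of these shifts was not tested. At this depth Ccr2 in young libraries lies at the limit of 0 to 3 counts, so its fold has no firm size. The binomial interval given for its ratio covers counting error only, not differences between mice or the choice of Ccr2 by this contrast.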
